A study of Mus musculus with 11 samples.

Results

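The genes described here are 10 genes of transforming growth factor beta (TGF-beta) signaling in the mouse aorta. They are the ligands Tgfb1, Tgfb2 and Tgfb3, the latency protein Ltbp1, the receptors Tgfbr1, Tgfbr2 and Tgfbr3, the signal transducers Smad3 and Smad7, and the effector gene Ctgf. They were chosen by name from the 36413 names on the array, with earlier results of these data known. All 10 names were found, on 14 probes that take up 32 spots of each array, and 12 of these probes, at least 1 for each gene, were detected.

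RNA of the descending aorta was measured in male C57BL/6 mice aged 20 months. The 5 old nitrate treated mice had received 1 g/L sodium nitrate (NaNO3) in the drinking water for 8 weeks, and the 6 old control mice are labelled control. By the study's methods the controls drank sodium chloride, a salt that their labels leave out. The labels describe each control as the reanalysis of a sample from an earlier series. The methods state 6 replicates of each group, and 5 nitrate arrays were analysed here. The study used the arrays to ask which genes in the aged aorta differ after nitrate supplementation. Each mouse had its own one-color Agilent array, a slide area with spots of short DNA that capture RNA labeled with the dye Cy3.

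TGF-beta ligands are secreted in a latent form, bound to their own propeptide and, through latent TGF-beta binding proteins, to the fibers of the extracellular matrix. Once released, a ligand brings together the type II receptor Tgfbr2 and the type I receptor Tgfbr1, which phosphorylates Smad2 and Smad3, and these enter the nucleus with Smad4 to switch on genes such as Ctgf and Smad7. In arteries the pathway is known for its part in smooth muscle differentiation, matrix production and vascular fibrosis, and mutations of its receptors and Smad3 cause aortic aneurysms.

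Values are log2 signals after quantile normalization, where 1 unit is a doubling of the signal. Probes bind with different strength, so the signals of different genes were not compared with each other. Where a gene had several detected probes, the brightest stood for it. P values are unadjusted and come from limma's moderated test unless another test is named. A gene was counted as differentially expressed at a P value under 0.05 with a fold change above 1.2, which is 0.26 on the log2 scale. The 11 arrays came from 3 slides, each scanned once, and every slide carried mice of both groups. Column 3 of the slides held the controls and other columns the nitrate treated mice, so column and treatment cannot be told apart. A fit with the slide column as a random block cannot separate them either. The markers of aortic smooth muscle and of endothelium were all detected, 8 of 8 each. In whole tissue, fewer cells of a type and less RNA per cell cannot be told apart.

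None of the 10 genes was differentially expressed between old nitrate treated and old control mice. The count was 0 of 12 detected probes, beside 9.00% of the 23630 detected probes of the array (2127 probes, 982 with the higher signal in nitrate treated mice and 1145 with the lower). Ltbp1 was the only gene with a P value under 0.05, which 14.4% of all detected probes had. No member separated the groups without overlap, as 2.75% of detected probes did. No member had a Benjamini-Hochberg adjusted P value under 0.05 in limma's test, and 3 probes of the array did, which is 0.0127%. With 1 probe per gene, 6 genes had the higher signal in nitrate treated mice and 4 the lower, with a median difference of 0.03, and the median over all detected probes was 0.01. The number of arrays limits the precision. The 95% confidence intervals of the 12 differences reached between 0.15 and 0.55 to each side, and 11 of them lay within a fold change of 1.5 in both directions.

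**Figure D1:**
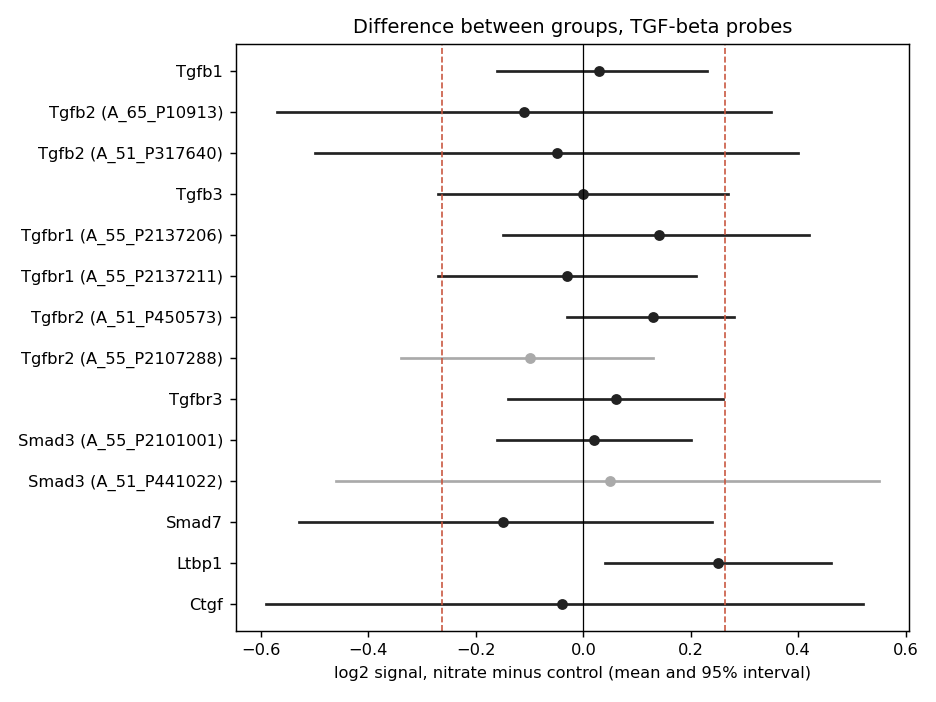
Difference in log2 signal between old nitrate treated and old control mice for each of the 14 probes, with its 95% confidence interval; positive values are higher in nitrate treated mice, grey marks probes that were not detected, and dashed lines stand at a fold change of 1.2. The interval of Ltbp1, from 0.04 to 0.46, is the only one of a detected probe that leaves out 0.

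For 4 of the genes the array holds a pair of probes at different places of the transcript, and these sequences show what was measured in each case. The first 30 of the 60 bases of each probe are given 5′ to 3′ as in the files, together with the probe of Ltbp1, the gene with the smallest P value.
Tgfb2 A_65_P10913: attggaaatacgcccaagatcgaacagctt
Tgfb2 A_51_P317640: tcatccattatttccctgatttcattgaaa
Tgfbr1 A_55_P2137206: tttcatcctaacactacagtagaaaatgga
Tgfbr1 A_55_P2137211: ctttttatctcatatgtgcagatcttgcaa
Tgfbr2 A_51_P450573: tctagcggggaatttacagaatgctggtcc
Tgfbr2 A_55_P2107288: gggaggagctgctcccaggagaagattcca
Smad3 A_55_P2101001: tataaacgcccttctaataaacttttcacc
Smad3 A_51_P441022: cgctgaaggtcagcgtataggtgatgtaca
Ltbp1 A_55_P1973033: ggaagtggaagagcttcatagagtttatta
In build mm9, which the files name, the whole probes of Tgfb2 lie at chr1:188449333-188449392 and chr1:188447534-188447593, both on the minus strand, and those of Tgfbr1 at chr4:47427736-47427795 and chr4:47424946-47425005, on the plus strand. Those of Tgfbr2 lie at chr9:115997155-115997214 and chr9:115999496-115999555 and those of Smad3 at chr9:63494574-63494633 and chr9:63497492-63497551, all on the minus strand. The probe of Ltbp1 lies at chr17:75790530-75790589 on the plus strand. The files place each probe by its position in a transcript and do not mark coding and untranslated exons. The Tgfb2 probe A_51_P317640, both Tgfbr1 probes and the Ltbp1 probe have the same GC content, 35.0%, and Tgfbr2 probe A_55_P2107288 has the highest of these 9 probes, 53.3%.

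The 3 ligand genes showed no difference between the groups beyond the spread between mice. Tgfb1, the best known ligand in fibrosis and inflammation, was measured by 10 spots of 1 probe at chr7:26489877-26489936. Its log2 signal in the nitrate treated mice was 8.16, 8.19, 8.02, 7.82 and 7.85, and in the controls it ran from 7.84 to 8.15 with a median of 7.98. The groups overlapped almost completely, and the difference was 0.03 (95% interval -0.16 to 0.23; exact permutation test, two-sided, p = 0.701).

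Tgfb2, a ligand needed for the development of heart and vessels, was 11.37 ± 0.48 (SD, n = 5) with nitrate and 11.48 ± 0.30 (SD, n = 6) in controls by its brighter probe. Single nitrate treated mice had 11.56, 11.79, 11.62, 11.29 and 10.57, and controls ran from 11.08 to 11.69. The lowest value of all was that of nitrate treated mouse 5, followed by controls 1 and 2. The difference was -0.11 (95% interval -0.57 to 0.35, exact permutation test, p = 0.673), and by the other probe it was -0.05 (-0.50 to 0.40). The probes lie 1799 bases apart in the transcript and ranked the mice alike. Over the 11 mice their Pearson correlation was 0.89 (permutation test, p = 0.00034, adjusted p = 0.00136 over the 4 probe pairs) and Spearman's rho was 0.84 (permutation test, p = 0.00218, adjusted p = 0.00872). Without nitrate treated mouse 5 and control 1, the mice farthest from the median, Pearson's r was 0.82. The signal of Tgfb2 varied between mice in much the same way at both places of its transcript.

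Tgfb3, the third ligand, was measured by 10 spots of a probe at chr12:87397804-87397863. It was 13.10 ± 0.13 (SD, n = 5) with nitrate and 13.10 ± 0.26 (SD, n = 6) in controls. Its values were 13.19, 13.23, 13.14, 12.98 and 12.94 in nitrate treated mice and ran from 12.58 to 13.26 in controls. Control 1 had the value of 12.58 and lay below every other mouse. Without it the difference was -0.11 (95% interval -0.27 to 0.06), against 0.00 (-0.27 to 0.27) with all mice. Repeated spots on an array differed less than mice did. The SD over the unflagged spots of Tgfb3 on an array was at most 0.06, against 0.21 between mice of a group, and that of Tgfb1 was at most 0.11, against 0.14.

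**Figure D2:**
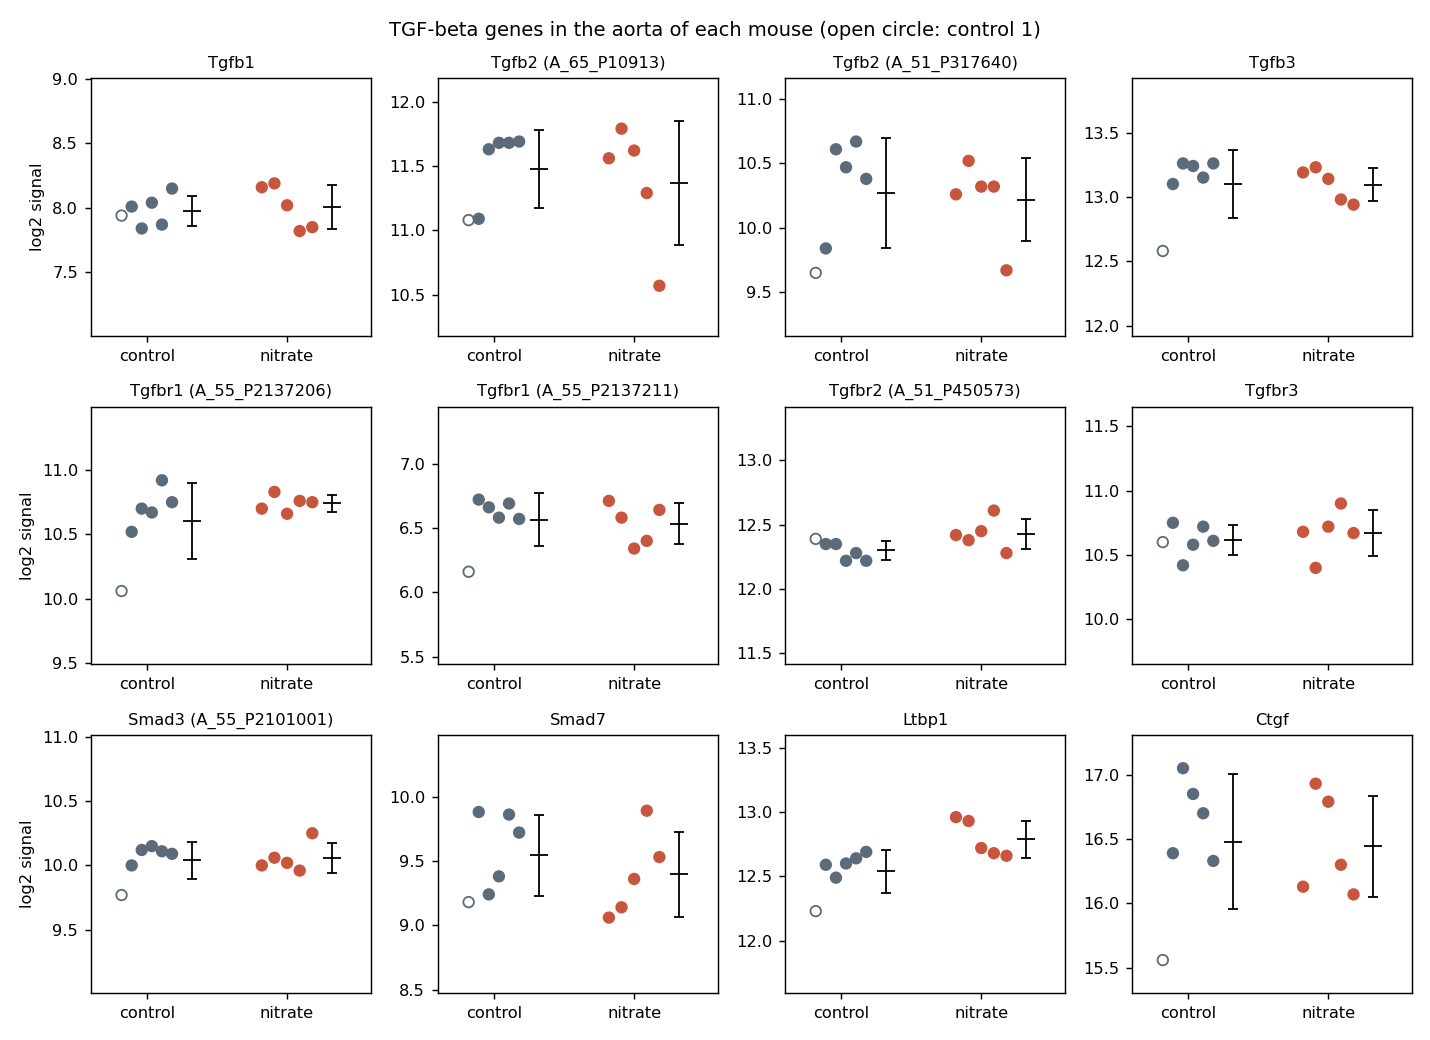
Log2 signal of each mouse for the 12 detected probes of the TGF-beta genes, with the mean ± SD of each group beside the points; every panel spans 2 log2 units and the open circle is control 1. The groups overlap in every panel, and in the Ltbp1 panel the lowest nitrate treated mouse, at 12.66, lies just under the highest control, at 12.69.

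Ltbp1 encodes latent TGF-beta binding protein 1, which ties the latent ligand to the matrix. It was 12.79 ± 0.14 (SD, n = 5) with nitrate and 12.54 ± 0.17 (SD, n = 6) in controls. The nitrate treated mice had 12.96, 12.93, 12.72, 12.68 and 12.66, and the controls 12.23, 12.59, 12.49, 12.60, 12.64 and 12.69. Most nitrate treated mice lay above all controls, and the remaining ones lay below control 6 alone. The difference was 0.25 with a standard error of 0.10 (95% interval 0.04 to 0.46, P value 0.0236), a fold change of 1.19 that stayed just under the limit. A two-sided exact permutation test gave p = 0.0130. Adjusted over all detected probes by Benjamini-Hochberg, limma's P value was 0.291, and 1912 other probes had a smaller unadjusted one.

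The difference in Ltbp1 was largest on slide 1. There, nitrate treated mice were 0.53 higher, on the slide that held control 1, and they were 0.07 higher on slide 2 and 0.10 higher on slide 3, and with slide as a block the difference was 0.26 (P value 0.0284). Without control 1 it was 0.19, a fold change of 1.14 (P value 0.0363). P values above 0.05 were obtained without nitrate treated mouse 1 (0.0644) and without mouse 2 (0.0618). With the slide column as a random block, which cannot separate column from treatment, the difference was 0.24 (P value 0.0562). The fold change passed 1.2 without nitrate treated mouse 3, 4 or 5 or control 5 or 6, where Ltbp1 was counted as differentially expressed. The marker means of the groups were compared as well. The mean of 7 fibroblast markers lay between 12.69 and 13.02 in nitrate treated mice and between 12.60 and 12.80 in controls (exact permutation test, p = 0.0303), and all 7 were higher in nitrate treated mice. The mean of 8 adipocyte markers lay between 12.26 and 12.76 against 12.62 and 13.40 (exact permutation test, p = 0.0216), all 8 lower. All 8 smooth muscle markers were higher in nitrate treated mice too, and their mean lay between 14.06 and 14.35 against 13.78 and 14.15, a difference of 0.15 (exact permutation test, p = 0.0779). Cd79b, the only detected marker of 5 for B cells, was lower, at 6.28 ± 0.35 (SD, n = 5) with nitrate against 7.10 ± 0.55 (SD, n = 6) in controls (exact permutation test, p = 0.0195). The means of the other lists differed by -0.01 (endothelial), -0.11 (brown adipocyte), 0.10 (macrophage, all 8 higher), 0.14 (platelet) and 0.67 (striated muscle). Each of these had an exact permutation p above 0.05. Control 1 had the lowest fibroblast and smooth muscle means and the highest adipocyte mean. Their part in the difference was not tested.

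**Figure D3:**
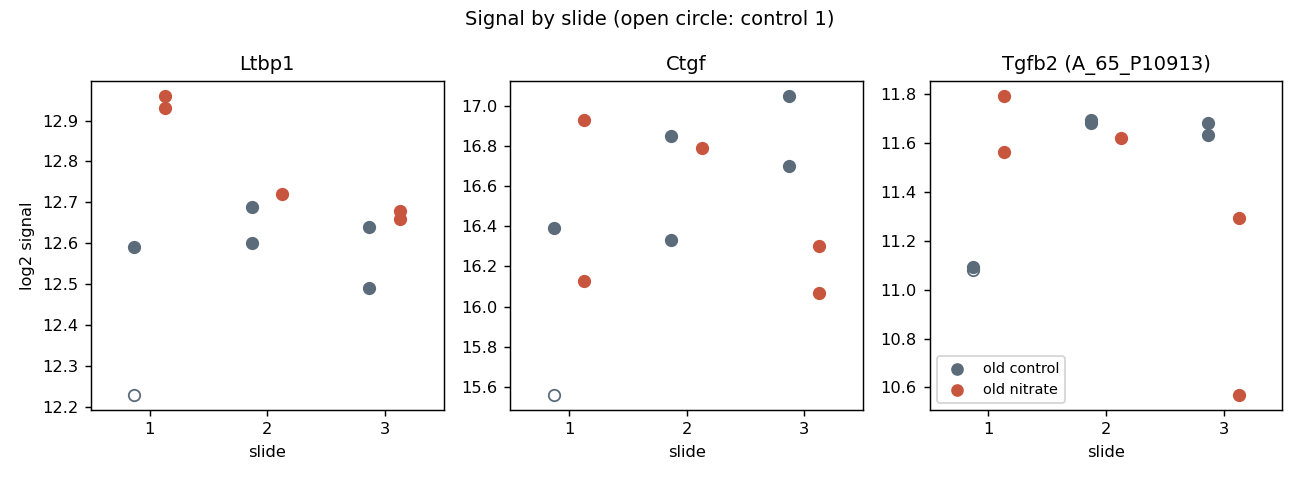
Log2 signal of Ltbp1, Ctgf and Tgfb2 by slide, 1 point per mouse, with control 1 as an open circle; nitrate treated mice stand to the right of the controls of their slide. For Ltbp1 the groups differ by 0.53 on slide 1 and by 0.07 and 0.10 on slides 2 and 3, while for Ctgf and Tgfb2 nitrate treated mice are higher on slide 1 and lower on slide 3.

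The receptor genes did not differ beyond the spread between mice either. Tgfbr2, the type II receptor that binds the ligand first, came nearest. Its probe A_51_P450573 gave 12.42, 12.38, 12.45, 12.61 and 12.28 in nitrate treated mice and 12.39, 12.35, 12.35, 12.22, 12.28 and 12.22 in controls. The highest values were those of nitrate treated mice, and nitrate treated mice 2 and 5 lay within the range of the controls. The difference was 0.13 (95% interval -0.03 to 0.28), a fold change of 1.09 (exact permutation test, p = 0.0563), and it was 0.03, 0.23 and 0.13 on slides 1, 2 and 3. Without nitrate treated mouse 4 it was 0.08 (P value 0.254), and without mouse 5 it was 0.16 (P value 0.0432), still under the limit on the fold change. This was the steadiest detected member, with an SD of 0.10 within groups, which 12.2% of detected probes undercut. All 11 arrays had the other Tgfbr2 probe well above background, but its spot was found in only 4 of 5 nitrate treated mice and 4 of 6 controls, so it was not counted as detected. It went the other way, at -0.10 (95% interval -0.34 to 0.13), and the probes had a Pearson correlation of 0.33 over the 11 mice (permutation test, p = 0.305, adjusted p = 0.407) and a Spearman's rho of 0.28 (permutation test, p = 0.403, adjusted p = 0.580).

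Tgfbr1, the type I receptor kinase, was 10.74 ± 0.06 (SD, n = 5) with nitrate and 10.60 ± 0.30 (SD, n = 6) in controls by its brighter probe. The nitrate treated mice had 10.70, 10.83, 10.66, 10.76 and 10.75, and all of them lay within the range of the controls, which ran from 10.06 to 10.92. Control 1 had the lowest value. The difference was 0.14 (95% interval -0.15 to 0.42) and, without control 1, 0.03 (-0.14 to 0.19). The other probe, 2790 bases away in the transcript, gave -0.03 (-0.27 to 0.21). Pearson's r between both probes was 0.65 (permutation test, p = 0.0478, adjusted p = 0.0956), and Spearman's rho was 0.19 (permutation test, p = 0.580, adjusted p = 0.580). Without control 1 and control 5 Pearson's r was -0.25, so the relation rests on those samples.

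Tgfbr3, or betaglycan, is a co-receptor that presents ligand, Tgfb2 above all, to the type II receptor. Its probe at chr5:107535818-107535877 had 10.68, 10.40, 10.72, 10.90 and 10.67 in nitrate treated mice and between 10.42 and 10.75 in controls. Both the lowest and the highest value were those of nitrate treated mice. The difference was 0.06 (95% interval -0.14 to 0.26; exact permutation test, p = 0.526).

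**Figure D4:**
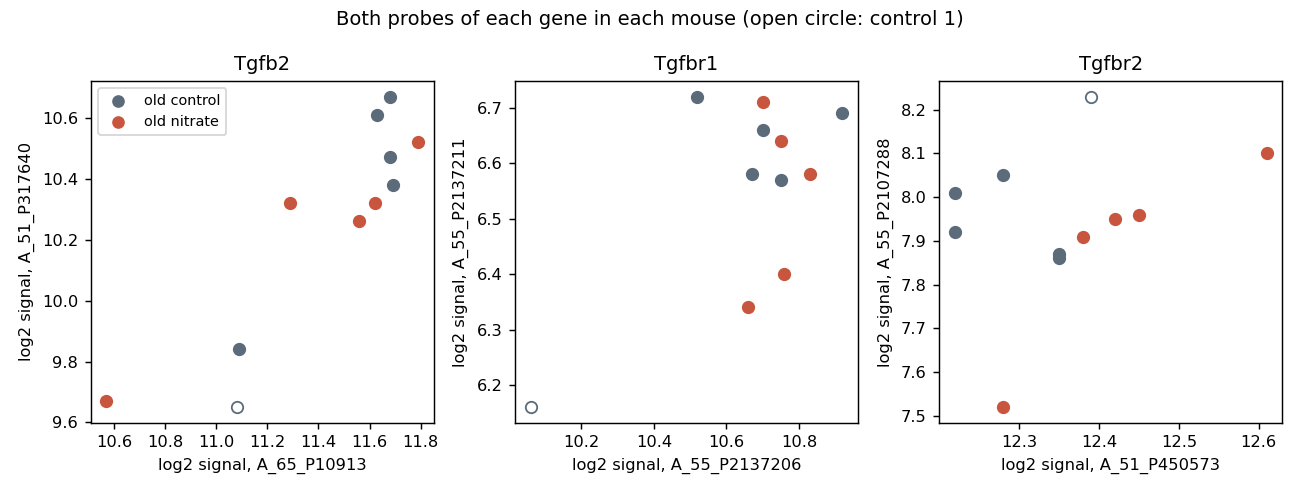
Log2 signal of one probe against the other probe of the same gene in the 11 mice, for Tgfb2, Tgfbr1 and Tgfbr2; colors give the group and the open circle is control 1. The Tgfb2 probes rise together (Pearson's r 0.89). For the Tgfbr1 probes r was 0.65 with all mice and -0.25 without controls 1 and 5, and it was 0.33 for Tgfbr2.

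Of the signal transducers, Smad3, which carries the signal from the receptor to the genes, was 10.06 ± 0.11 (SD, n = 5) with nitrate and 10.04 ± 0.14 (SD, n = 6) in controls. The difference was 0.02 (95% interval -0.16 to 0.20; exact permutation test, p = 0.794). The second Smad3 probe was not well above background in any nitrate treated mouse and was so in 1 of 6 controls, so it gives no fold change.

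Smad7, the inhibitory Smad that the pathway induces as its own brake, was detected in 5 of 5 nitrate treated mice and 5 of 6 controls. It had 9.06, 9.14, 9.36, 9.89 and 9.53 in nitrate treated mice and between 9.18 and 9.88 in controls. The lowest 2 values and the highest value were all those of nitrate treated mice. The difference was -0.15 (95% interval -0.53 to 0.24; exact permutation test, p = 0.450).

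Ctgf, or Ccn2, encodes connective tissue growth factor, a matrix protein that is a classic target of TGF-beta and of mechanical stretch. It was 16.44 ± 0.39 (SD, n = 5) with nitrate and 16.48 ± 0.53 (SD, n = 6) in controls, by a probe at chr10:24318281-24318340. The nitrate treated mice had 16.13, 16.93, 16.79, 16.30 and 16.07, and the controls 15.56, 16.39, 17.05, 16.85, 16.70 and 16.33. Both groups spanned high and low values, with control 1 lowest and control 3 highest. The difference was -0.04 (95% interval -0.59 to 0.52; exact permutation test, p = 0.894), and this is the widest interval of the detected members. The SD of Ctgf within groups, 0.47, was larger than that of 95.6% of all detected probes, where the median was 0.18. Tgfb2 had 0.39 by its brighter probe (larger than 91.7%) and Smad7 0.32 (larger than 84.7%), while Tgfb1 had 0.14 (larger than 32.9%). The most variable members were Ctgf and Tgfb2.

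For Ctgf and Tgfb2 the groups differed in opposite directions on different slides. Nitrate treated mice were higher on slide 1, by 0.56 for Ctgf and 0.59 for Tgfb2, and lower on slide 3, at -0.69 and -0.73. On slide 2 the differences were 0.20 and -0.07. Each slide holds at most 2 mice of a group, and the change of direction between slides was not tested. Control 1 had the lowest signal of all 11 mice in 7 of the 12 detected probes, more than any other mouse. These include both probes of Tgfbr1. How often control 1 was lowest over all detected probes is not given here. Leaving it out gave -0.22 for Ctgf (95% interval -0.66 to 0.22), -0.19 for Tgfb2 (-0.67 to 0.29), -0.22 for Smad7 (-0.61 to 0.17), -0.03 for Smad3 (-0.18 to 0.12) and 0.14 for Tgfbr2 (-0.01 to 0.30). In each of these the P value stayed above 0.05. Leaving out other mice moved some of them upward, with 0.09 for Tgfb2 without nitrate treated mouse 5, 0.08 for Ctgf without control 3 and -0.06 for Smad7 without nitrate treated mouse 1.

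Around the 10 members, 120 further genes of the pathway and its neighbors were listed by role, and 104 had a detected probe. At these thresholds nitrate treated mice had more signal for 7 of these and less for 4, which is 10.6% beside 9.00% over all detected probes. Of the 4, Mmp9 was detected through the controls alone. In 6 genes the groups did not overlap, which is so for 2.75% of detected probes. None passed an adjusted P value of 0.05 in limma's test, while 19 had an unadjusted P value under 0.05. The median difference was 0.06, with 70 genes (67.3%) higher and 34 lower, against a median of 0.01 and 53.8% higher over all detected probes.

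**Figure D5:**
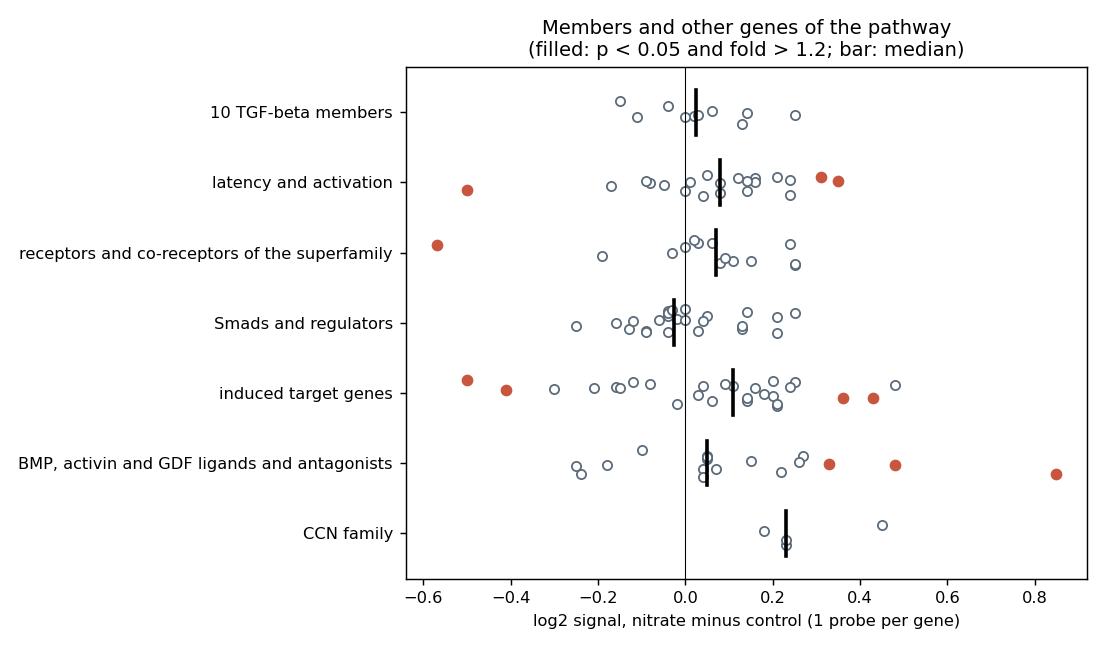
Difference in log2 signal between old nitrate treated and old control mice, 1 point per gene, for the 10 TGF-beta members and 6 lists of related genes; filled points passed both thresholds, and bars are medians. No member is filled, and the farthest filled points are Grem1, at 0.85, and Acvr1c, at -0.57.

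Among 21 detected genes of latency and activation, Plat and Aspn rose, and the median difference was 0.08. Plat, tissue plasminogen activator, had 10.45, 10.37, 9.93, 9.72 and 9.74 in nitrate treated mice and between 9.61 and 9.83 in controls, a difference of 0.35 (P value 0.0247). Its high values were those of nitrate treated mice 1 and 2, without either of which its P value was above 0.05 (differences of 0.25 and 0.27), as it was with the slide column as a random block (0.32, P value 0.0584). Aspn, asporin, a matrix proteoglycan that binds TGF-beta, rose by 0.31 (P value 0.0410) and had a P value above 0.05 or a fold change under 1.2 in 8 of 23 other settings. Mmp9, a gelatinase, passed both thresholds with a lower signal in nitrate treated mice. It was well above background in 6 of 6 controls and in 3 of 5 nitrate treated mice, so it was detected through the controls alone and the size of its difference is limited by the background. The other latent TGF-beta binding proteins, relatives of Ltbp1, had differences of 0.14 (Ltbp2), 0.08 (Ltbp3) and 0.24 (Ltbp4), each with a P value above 0.05. Fbn1, the fibrillin to which these proteins attach, had 0.21 (P value 0.0573).

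Among 14 detected receptors and co-receptors, Acvr1c fell and none rose. Acvr1c, the type I receptor ALK7, best known from adipose tissue, had 9.22, 9.36, 9.28, 9.61 and 9.75 in nitrate treated mice and 10.32, 9.87, 10.22, 9.90, 9.82 and 9.93 in controls. Every nitrate treated mouse lay below every control. The difference was -0.57 with a standard error of 0.12 (exact permutation test, p = 0.00216, the smallest value this test can give), and limma's adjusted P value was 0.121. A second Acvr1c probe gave the same difference, -0.57 (P value 0.0123). By that probe the groups overlapped, with nitrate treated mice up to 9.24 and controls down to 9.00. All 8 adipocyte markers were lower in nitrate treated mice as well, with a mean difference of -0.41, and their part in the lower Acvr1c signal was not tested. Acvr1b and Bmpr1a, type I receptors for activins and bone morphogenetic proteins, had P values of 0.00706 and 0.0373 with differences of 0.24 and 0.25, under the limit on the fold change. Eng, the endothelial co-receptor endoglin, had 0.02.

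Of the 24 detected Smads and regulators none passed both thresholds, and their median difference was -0.02. Smad2 and Smad4, the partners of Smad3, had differences of -0.04 and 0.03. Tgif1, a repressor of Smad activity (0.25, P value 0.0226), and the ubiquitin ligase Smurf1, which removes receptors and Smads (-0.25, P value 0.0258), passed the P value but not the limit on the fold change, as did the deubiquitinase Usp15 (-0.16, P value 0.0452). Fkbp1a, which holds the type I receptor inactive, had a difference of 0.13, and Pmepa1, a feedback inhibitor that TGF-beta induces, had 0.21 (P value 0.106).

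Of the 27 detected target genes, Postn and Tsc22d1 rose and Cdkn1a and Cdkn2b fell, and the median difference over the list was 0.11. Postn, periostin, a matrix protein of remodeling tissue, had 13.31, 13.59, 13.21, 13.31 and 13.46 in nitrate treated mice and between 12.53 and 13.16 in controls, without overlap. Its difference was 0.43 with a standard error of 0.12 (exact permutation test, p = 0.00433) and 0.77, 0.14 and 0.29 on the 3 slides. The fibroblast markers, higher with nitrate by a mean of 0.17, moved in the same direction, and their part in the Postn difference was not tested. Tsc22d1, a transcription regulator first found as a TGF-beta-stimulated gene, rose by 0.36 (P value 0.00289), and a second probe by 0.33. The cell cycle inhibitors Cdkn1a (p21) and Cdkn2b (p15), both induced by TGF-beta in epithelial cells, fell. Cdkn1a had 9.18, 9.21, 9.30, 8.83 and 9.30 in nitrate treated mice and between 9.39 and 9.97 in controls, a difference of -0.50 without overlap (exact permutation test, p = 0.00433). Cdkn2b fell by 0.41 (P value 0.0293), and a second probe fell by 0.48 (P value 0.00898). The P value of the first was above 0.05 without control 1 (0.0556), control 3 (0.0640), nitrate treated mouse 2 (0.0526) or mouse 3 (0.0550), and with the slide column as a random block (0.0639), with differences between -0.40 and -0.30.

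The matrix genes Timp3 (0.25, P value 0.0170) and Thbs2 (0.18, P value 0.0470) passed the P value but not the limit on the fold change. Some other matrix and smooth muscle targets passed neither. Col1a1, a collagen chain, had a difference of 0.11, Fn1, fibronectin, 0.20, Acta2, smooth muscle actin, 0.03 and Tgfbi 0.04, each with a P value above 0.05. The 4 detected relatives of Ctgf in the CCN family, which include Cyr61 (0.45, standard error 0.49), Wisp2 (0.18, standard error 0.23) and Nov (0.23, P value 0.0282), had a median difference of 0.23, and none passed both thresholds. With a mouse left out, Cyr61 ran from 0.19 (without nitrate treated mouse 2) to 0.72 (without mouse 1) and Wisp2 from -0.01 (without mouse 2) to 0.35 (without mouse 5).

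Among 17 detected bone morphogenetic proteins, activins, growth and differentiation factors and their antagonists, Grem1, Bmp3 and Bmp1 rose and none fell, with a median difference of 0.05. Grem1, gremlin 1, a secreted antagonist of bone morphogenetic proteins, had 6.76, 6.49, 6.34, 6.97 and 6.41 in nitrate treated mice and 6.01, 5.87, 5.87, 5.20, 5.33 and 6.22 in controls. Every nitrate treated mouse lay above every control, and the difference of 0.85 with a standard error of 0.19, a fold change of 1.80, was the largest among all 104 genes in these values (exact permutation test, p = 0.00433). It was 0.69, 0.63 and 1.09 on slides 1, 2 and 3 and 0.46 with normexp background correction, where Acvr1c (-0.52) and Cdkn1a (-0.48) differed by more, and limma's adjusted P value was 0.130. Bmp3 rose by 0.48 (P value 0.0121). Bmp1, a protease that trims procollagens, rose by 0.33 (P value 0.0196), while its other detected probes had differences of 0.19 and 0.00, and it was no longer counted without control 1 (0.24, under the limit) or without nitrate treated mouse 2 (0.27, P value 0.0559).

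Leaving out control 1 changed the count of differentially expressed pathway genes from 11 to 8, with 5 higher and 3 lower, all of them among the 11. Aspn, Cdkn2b and Bmp1 were the genes no longer counted. Over all detected probes the count without this mouse was 1595. No member was counted in either case.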

How the data were processed

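RNA of the aorta was measured on one-color arrays in 5 old nitrate treated and 6 old control mice. The authors deposited spot intensities from Feature Extraction 10.7.1.1, background-subtracted and not normalized between arrays, and a table of processed log2 values, which by the study's methods was made with GeneSpring GX. Here, processed intensities below 1 were set to 1 before log2 was taken. Control spots and spots flagged as outliers were dropped (no array had over 186 flagged of 59305 spots, and 0 were saturated), repeated spots of a probe were averaged, and quantile normalization followed. Arrays had a 75th percentile of signal from 213 to 289. Detection needed the spot to be found and well above background on 5 or more arrays of 1 group.

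Groups were compared with limma 3.58.1 in R 4.3.3 (lmFit, eBayes) over all arrays, and P values were adjusted by Benjamini-Hochberg over all detected probes. The call of an unadjusted P value under 0.05 with a fold change above 1.2 follows the study's methods. Single values and marker means had two-sided exact permutation tests over the 462 divisions of the mice, and correlations had permutation tests. The code was tested on simulated data. A gene was represented by its brightest detected probe. Named were all members, called genes of the other lists (at most 8 a list) and, where a list had none, the 2 genes with the highest signal (a rule for naming alone, since probes differ in strength); further genes were named with their values in view. The members, lists and tests were chosen with earlier results of these data known. Positions are in mm9, as in the files. Alternatives covered normalization, background correction, the deposited table, detection rules, flagged spots, prior variance, slide, slide column, replicate number, the probe of a gene and each array left out. The one without a fold limit was chosen after seeing the data.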

Additional observations from a re-analysis of the deposited data

Results flagged for a closer look

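In 8 of 72 groups checked (11.1%), among member probes, named genes and marker means, 1 mouse stood well away from the rest of its group. The ratio given divides the distance from that mouse to the next one by the whole spread of the group. The checks share the same 11 mice and most of those flagged concern control 1, so they are not independent and no chance rate is set beside them. Control 1 was low in Tgfb3 (0.767), in the Tgfbr1 probe A_55_P2137211 (0.728) and in the smooth muscle marker mean (0.715). It was high in the brown adipocyte (0.776), striated muscle (0.690) and platelet (0.748) marker means. Nitrate treated mouse 4 had a still higher striated muscle mean, 12.07 against 11.61 in control 1. Nitrate treated mouse 1 was low in the B cell marker mean (0.881), which rests on Cd79b, the 1 of 5 B cell markers that was detected. Nitrate treated mouse 4 was low in Cdkn1a (0.761), which did not set the direction of that difference, since every nitrate treated mouse lay below every control.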

How the results depend on the processing

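Across the alternatives tried, no member other than Ltbp1 was counted as differentially expressed. Ltbp1 was counted with the replicate block (0.28, 1 member probe and 1 member gene), without a limit on the fold change (0.25, also 1 and 1), and in some of the fits that left out a mouse, over which its difference ran from 0.19 to 0.28 and the count of members, in probes and in genes, from 0 to 1 (1 without nitrate treated mouse 3, 4 or 5 or control 5 or 6). Deviations of same-numbered arrays had correlations between -0.14 and 0.18, and only nitrate array 2 correlated best with the control of its number. These values cannot decide whether the replicate numbers pair the mice, since pairing need not show in expression. Plat was not counted with the replicate block (0.36, P value 0.0520). The small differences of Ctgf, Tgfb1, Smad3, the Tgfb2 probes and the dimmer Tgfbr1 probe turned sign in 1 to 5 of 23 settings and passed the thresholds in none. The count over all detected probes, 2127, was 1217 with normexp background correction (35.8% of them higher, against 46.2%), 3224 without a detection filter (53.2% higher), 1369 with the slide column as a random block, 3393 without a fold limit (53.7% higher), and 1595 to 2423 with a mouse left out (1595 without control 1; 53.8% higher without control 3). The count of other pathway genes, 11, was 19 without a fold limit and 8 to 17 with a mouse left out (17 without control 5). With a mouse left out, marker means differed by -0.48 to -0.32 for adipocytes, with a permutation p above 0.05 without nitrate treated mouse 1, 2 or 5. They differed by 0.14 to 0.22 for fibroblasts, above 0.05 without nitrate treated mouse 2, 3 or 4 or control 1, and by 0.09 to 0.18 for smooth muscle, below 0.05 without nitrate treated mouse 4. For B cells they ran from -0.95 to -0.66, above 0.05 without nitrate treated mouse 1, and without a detection filter the value was -0.33. The cause of these changes was not tested. Low signals, as in Mmp9 and the second Smad3 probe, are limited by the background.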
